A study of Mus musculus with 23 samples.

Results

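The genes described here are 8 receptors that myeloid cells, microglia among them, use to hold back or tune activation: Siglech, Siglece, Cd33, Cd300a, Pilra, Sirpa, Cd200r1 and Lair1. They were listed by name, and their loci were the gene bodies (GRCm38) with 20 kb on either side. They make up 8 of 21883 protein-coding genes. A peak was counted at a receptor when its summit, its highest point, fell in one of these loci. Of the 1054137 deposited peaks, 1359 did so, between 42 and 85 per library. Chromatin accessibility was measured by ATAC-seq, which cuts and tags open DNA with a transposase, in striatal microglia of male mice, 8 to 10 weeks old. The groups were offspring of dams with maternal immune activation (MIA) after lipopolysaccharide (MIA_LPS, n = 5) or saline (MIA_SAL, n = 6), and control offspring (CON) after lipopolysaccharide (CON_LPS, n = 7) or saline (CON_SAL, n = 5). Lipopolysaccharide (LPS), a component of the bacterial cell wall, was injected into the peritoneum (4500 endotoxin units for each gram of weight) 18 hours before the cells were taken. In all 4 groups the brain was freed of meninges and dissociated with papain, and the sort kept living cells that were P2RY12+, CD11b+ and low in CD45. Neither the agent of the maternal activation nor the strain is given in the sources used here. Nothing in the labels says that the libraries are separate animals, so the p-values below cover only the variation from library to library, which may be technical. Some libraries share an identity number in the labels, never across MIA and CON offspring, and what the number stands for is not stated. The tests took all libraries as independent and did not model these shared numbers.

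Many inhibitory receptors carry a short tyrosine motif in their cytoplasmic tail, which Src family kinases phosphorylate when the receptor binds its ligand. The phosphorylated motif recruits the phosphatases Ptpn6, Ptpn11 or Inpp5d, which damp signals from activating receptors. Not every receptor named here works in this way, and their protein sequences were not examined. In the brain, SIRP-alpha (Sirpa) reads CD47 and CD200R1 (Cd200r1) reads CD200, both found on neurons. The sialic acid binding lectins Siglec-E (Siglece) and CD33 read sugars on the surface of cells. Siglec-H (Siglech), a mouse gene used as a marker of microglia and of plasmacytoid dendritic cells, lacks the inhibitory motif and signals through the adaptor Tyrobp. CD300A (Cd300a) binds phosphatidylserine and phosphatidylethanolamine on dying cells, PILR-alpha (Pilra) binds sialylated proteins, and LAIR-1 (Lair1) binds collagens.

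The deposited lists held between 33949 and 68312 peaks, so each was shortened to its best 33949 by the authors' −log10 p. Windows that reach 250 bp to either side of a summit are called regions where 3 or more of the 23 libraries had a peak. The 8 loci held 84 windows, of which 65 were kept as regions (77.4%, against 66.1% of all windows), of 49126 regions in all. A rank percentile gives the place of a region's peak within its library's list by −log10 p, where 100 is the strongest and 0 means no peak. An adjusted p under 0.05 was a call. Of 8 microglia markers, 5, among them P2ry12, Cx3cr1, Sall1 and Csf1r, had a peak in the gene body in every library, and Tmem119 had none in any library. Of 7 monocyte and neutrophil markers, S100a8 had a peak in 2 MIA_LPS libraries, and Ccr2, Ly6c2, S100a9, Ly6g, Camp and Ngp had none in any library. Their summed peaks were 0 to 1 in MIA_LPS and 0 in MIA_SAL, CON_LPS and CON_SAL. Of 5 markers of plasmacytoid dendritic cells, which also carry Siglech, the sum was 1 to 2 in each of the 4 groups, with Klk1 and Ly6d at 0 and only Ccr9 with a peak in every library. Of 5 markers of border-associated macrophages, the sum was 1 to 4 in MIA_LPS, 1 to 3 in MIA_SAL, 1 to 3 in CON_LPS and 1 to 4 in CON_SAL. Among these, Mrc1 had a peak in every library, Lyve1 in 1 CON_SAL library, and Cd163, Pf4 and Clec10a in none. A change in part of the cells cannot be told apart from a smaller change in all of them.

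With LPS the number of peaks rose at the Cd33 and Cd300a loci. By rank, 3 regions rose at Cd33, 3 at Pilra, 2 at Cd300a, 2 at Sirpa, 1 at Siglech and 1 at Cd200r1. A peak was more often present with LPS at 3 of these regions at Cd33, 2 at Cd300a, 2 at Sirpa, 1 at Siglech and 1 at Pilra. At Siglece and Lair1 the single call of each locus was a decline in rank. In lists of equal length the 8 loci together held 49.8 ± 1.3 peaks in MIA_LPS, 41.3 ± 2.73 in MIA_SAL, 49.6 ± 6.53 in CON_LPS and 41.4 ± 2.97 in CON_SAL (mean ± SD). CON_LPS replicate 7 went the other way, with 36 peaks against 38 to 45 in MIA_SAL and 38 to 46 in CON_SAL. The Cd33 locus held 7, 8, 8, 9 and 7 peaks in the 5 MIA_LPS libraries, 4 to 7 (median 4.5) in MIA_SAL, 7 to 10 (median 8) in CON_LPS, and 4, 4, 6, 5 and 4 in CON_SAL. LPS and saline libraries overlapped only at 7 peaks. The log2 ratio of peak number plus 1, LPS over saline across both offspring groups, was 0.64 ± 0.09 (SE; limma, adjusted p = 7.8e-05). The Cd300a locus held 8, 8, 11, 7 and 9 peaks in MIA_LPS, 4 to 7 (median 5.5) in MIA_SAL, 7 to 11 (median 8) in CON_LPS, and 7, 5, 5, 6 and 6 in CON_SAL. Here too the treatments met only at 7 peaks, and the log2 ratio was 0.52 ± 0.091 (limma, adjusted p = 6.06e-04). The ratio at Cd300a no longer passed with all deposited peaks (0.45, limma, adjusted p = 0.0954), within the gene body alone (0.07, adjusted p = 0.497) or in lists of 16974 peaks (0.19, adjusted p = 0.0576). In lists of 16974 peaks the ratio at Cd33 did not pass either (0.08, limma, adjusted p = 0.888). Over all 14433 loci tested, 6.32% were called higher and 4.59% lower with LPS. The other 6 receptor loci were not called. Their mean peak numbers in MIA_LPS and MIA_SAL were 9.6 and 9.5 at Sirpa, 4 and 3.67 at Siglech, 5 and 4.17 at Siglece, 2.8 and 2.5 at Cd200r1, 4.8 and 3.5 at Pilra, and 7.2 and 7.33 at Lair1. In CON_LPS and CON_SAL they were 9.86 and 9.0 at Sirpa, 4.14 and 3.6 at Siglech, 5 and 4.4 at Siglece, 2.57 and 2.4 at Cd200r1, 4.14 and 4 at Pilra, and 7 and 7.6 at Lair1.

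**Figure D1:**
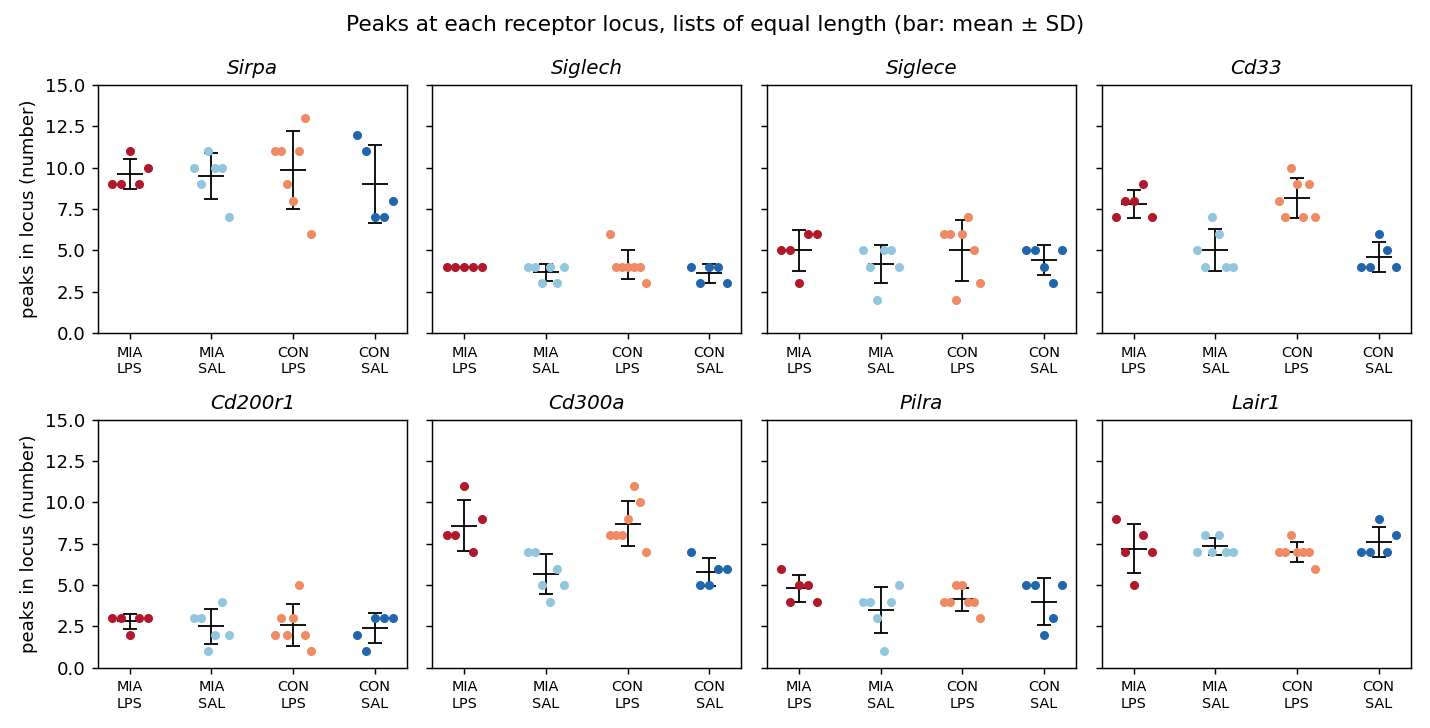
Number of peaks per library (y axis) at each of the 8 receptor loci, gene body with 20 kb on either side, in lists of equal length, by group (x axis; 5 MIA_LPS, 6 MIA_SAL, 7 CON_LPS and 5 CON_SAL libraries). Points are libraries and bars the mean ± SD. At Cd33 and Cd300a the LPS libraries hold 7 or more peaks and the saline libraries 7 or fewer, while the other 6 loci overlap more widely.

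By presence of a peak, 27 of the 65 regions could reach a p of 0.01 and were tested across both offspring groups. The exact stratified test called 9 of the 27 (33.3%) more often present with LPS and 0 less often, with 15.3% and 8.39% called in these directions among all 17548 tested regions. By rank, limma called 12 of 65 regions (18.5%) higher and 6 (9.23%) lower with LPS, against 10.8% and 9.77% of all 49126 regions. The share lower was thus close to that of all regions. In lists of 16974 peaks, which hold no peak under a rank percentile of 50, 1 region was called by presence and 3 by rank. All 9 regions called by presence were also among the 12 called by rank. An absent peak has rank 0, so the tests of presence and of rank are not independent of each other. The median rank difference, LPS minus saline, was 0.86 points over the 65 regions and −0.60 over all regions. The 12 higher regions lay at 6 of the genes, 6 of them in a gene body and 6 outside, and none within 1 kb of the end of a protein-coding gene. None of the 12 had a peak in all 23 libraries, and 5 had no peak in any saline library. Of the 6 lower regions, 5 had a peak in all 23 libraries and 3 lay within 1 kb of a gene end. The same counts were not made for all regions called over the genome, so they cannot be read as particular to the receptors. Over all 65 regions, 22 (33.9%) had a peak in every library, against 33.8% of all regions, and 9 (13.8%) had no peak in any saline library, against 6.89% of all regions.

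**Figure D2:**
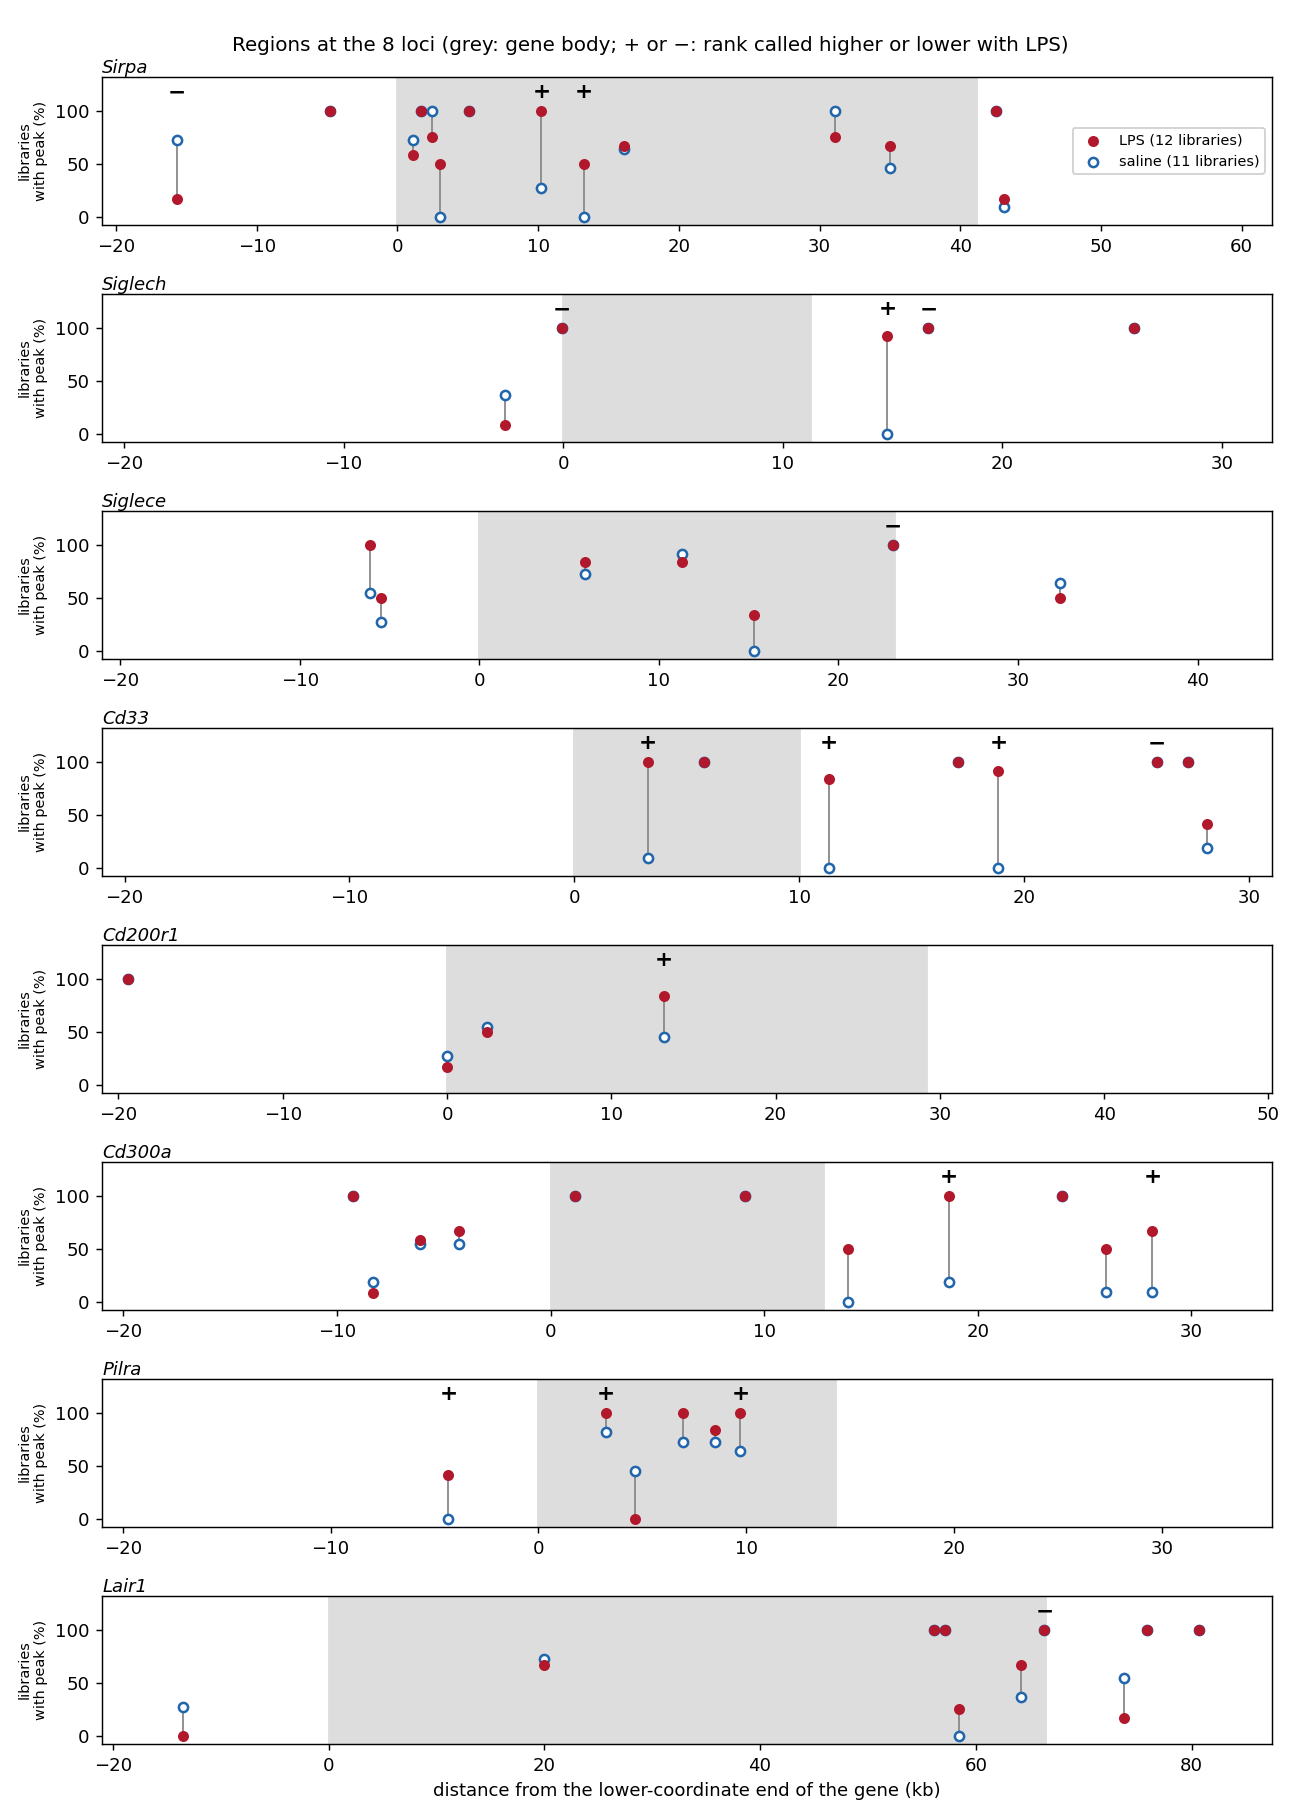
Share of LPS libraries (filled red, 12 libraries) and of saline libraries (open blue, 11 libraries) with a peak in each of the 65 regions (y axis, percent), by distance in kb from the lower-coordinate end of the gene (x axis). Grey is the gene body, grey lines join the shares of a region, and + or − marks the 12 regions called higher and the 6 called lower by rank. At Cd33 and Cd300a the regions with the widest gaps lie beside regions that had a peak in every library.

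Among the sialic acid receptors, Cd33 (chromosome 7, 43527399 to 43537424) had 8 regions, of which 3 rose in rank with LPS, 1 fell and 4 were not called. The first of these lay within the gene (chr7:43530402-43530902). Its rank percentile was 29.2, 29.6, 60.7, 48.6 and 34.7 in MIA_LPS, 0 in all 6 MIA_SAL libraries, 24.5 to 60.3 (median 51.4) in CON_LPS, and 0, 0, 0, 3.6 and 0 in CON_SAL. Every LPS library had a peak there and stood above every saline library. The difference was 42.3 ± 5.06 points (SE; limma, adjusted p = 9.4e-07), and the exact stratified test of presence gave an adjusted p of 5.6e-04. With all deposited peaks this presence call was lost, with 53.3 points more LPS libraries (exact stratified test, adjusted p = 0.0742), while the rank call was kept. The second lay 8823 bp outside the gene on the side of its start (chr7:43545997-43546497), with 28.2, 32.4, 50.6, 21.0 and 31.3 in MIA_LPS, 0 in all MIA_SAL, 0 to 47.7 (median 27.3) in CON_LPS and 0 in all CON_SAL libraries. No saline library and all but 1 LPS library had a peak in it, and the difference was 28.1 ± 4.86 points (limma, adjusted p = 1.3e-04). The third lay 1286 bp outside the gene (chr7:43538460-43538960), with 23.7, 43.2, 60.9, 7.5 and 33.9 in MIA_LPS, 0 in all MIA_SAL, 0 to 45.5 (median 15.9) in CON_LPS and 0 in all CON_SAL libraries. It had a peak in 5 of 5 MIA_LPS, 0 of 6 MIA_SAL, 5 of 7 CON_LPS and 0 of 5 CON_SAL libraries, and differed by 25.2 ± 5.3 points (limma, adjusted p = 0.00108). Another region, 15852 bp outside the gene and nearer to Zfp658, had a peak in all 23 libraries and fell by 10.4 points in rank (limma, adjusted p = 0.0152).

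Siglech (chromosome 7, 55768154 to 55779448) changed in both directions. A region 3466 bp beyond its end (chr7:55782664-55783164) had rank percentiles of 23.1, 5.8, 42.2, 38.0 and 25.9 in MIA_LPS, 0 in all MIA_SAL, 0 to 34.6 (median 13.9) in CON_LPS and 0 in all CON_SAL libraries. It appeared in 5 of 5 MIA_LPS and 6 of 7 CON_LPS libraries and in no saline library, a difference of 20.7 ± 4.21 points (limma, adjusted p = 7.8e-04; exact stratified test of presence, adjusted p = 5.4e-04). Its rank by the authors' fold enrichment was lower than by −log10 p, with means of 15.0 in MIA_LPS and 6.88 in CON_LPS, and in lists ranked by fold the rank call was lost (8.0 points, limma, adjusted p = 0.0862). The promoter of Siglech, with a peak in all 23 libraries, had lower ranks with LPS. They were 51.2, 35.6, 54.0, 40 and 36.1 in MIA_LPS, 52.9 to 71.4 (median 60.3) in MIA_SAL, 36.3 to 68.4 (median 48.4) in CON_LPS, and 70.3, 66.5, 49.8, 61.6 and 56.5 in CON_SAL. The groups overlapped, and the difference was −14.6 ± 4.14 points (limma, adjusted p = 0.013). With all deposited peaks it was −9.6 (limma, adjusted p = 0.102) and in lists ranked by fold −7.8 (limma, adjusted p = 0.404), so this call depended on how the lists were cut and ranked. A region 5336 bp beyond the gene fell by 7.2 points (limma, adjusted p = 0.0322) and had a peak in every library.

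Siglece (chromosome 7, 43648882 to 43672044) had 7 regions and 1 call. The called region (chr7:43671681-43672181) lay where the gene meets its neighbour Ctu1, which encodes an enzyme of tRNA modification, 40 bp from an end of Ctu1. Its rank percentile was 69.9, 83.0, 74.3, 80.7 and 82.9 in MIA_LPS, 77.1 to 91.0 (median 84.5) in MIA_SAL, 73.3 to 83.2 (median 79.0) in CON_LPS, and 86.4, 93.3, 87.9, 80.5 and 90.4 in CON_SAL. The saline libraries ranked higher on average but overlapped with the LPS libraries, and the difference was −7.7 ± 1.92 points (limma, adjusted p = 0.00488; with all deposited peaks −5.8, adjusted p = 0.0531). Which of the overlapping genes the region serves was not tested.

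Cd300a (chromosome 11, 114889152 to 114901946) held the region with the smallest p among the 65. It lay 5841 bp beyond the end of the gene (chr11:114907537-114908037). Its rank percentile was 57.2, 59.8, 57.5, 34.8 and 66.8 in MIA_LPS, 0 to 12.3 (median 0) in MIA_SAL, 19.0 to 66.4 (median 59.6) in CON_LPS, and 12.3, 0, 0, 0 and 0 in CON_SAL. All 12 LPS libraries stood above all 11 saline libraries, of which 1 in each offspring group had a weak peak. The difference was 51.5 ± 5.63 points (limma, adjusted p = 2.3e-07), and by fold the mean rank was 53.6 in MIA_LPS, 2.02 in MIA_SAL, 49.0 in CON_LPS and 2.61 in CON_SAL. Another region, 15382 bp from Cd300a and 5451 bp from its relative Cd300lb, had a peak in 3 of 5 MIA_LPS, 1 of 6 MIA_SAL, 5 of 7 CON_LPS and 0 of 5 CON_SAL libraries. Its rank rose by 16.1 ± 4.42 points (limma, adjusted p = 0.0104). The presence call there (exact stratified test, adjusted p = 0.0480) was lost on leaving out any of 18 of the 23 libraries, and with all deposited peaks (adjusted p = 0.300). The other 9 regions of the locus were not called.

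Pilra (chromosome 5, 137821952 to 137836278) had 3 of 6 regions higher by rank and none in every library. Within the gene, chr5:137831423-137831923 had rank percentiles of 39.3, 44.9, 48.7, 21.4 and 49.7 in MIA_LPS, 0 to 30.4 (median 7.77) in MIA_SAL, 20.6 to 52.3 (median 44.0) in CON_LPS, and 44.6, 23.9, 0, 0 and 42.7 in CON_SAL. The groups overlapped, and the difference was 24.5 ± 6.54 points (limma, adjusted p = 0.00841; in lists ranked by fold 17.7, adjusted p = 0.0520). Counting a peak only where its summit lay inside the region gave 18.9 (limma, adjusted p = 0.0935). A second region within the gene (chr5:137824963-137825463) had 52.5, 47.3, 36.3, 35.7 and 36.3 in MIA_LPS, 0 to 39.4 (median 20.2) in MIA_SAL, 31.4 to 54.0 (median 44.4) in CON_LPS, and 27.7, 46.4, 0, 29.6 and 14.5 in CON_SAL. It differed by 20.6 ± 5.94 points (limma, adjusted p = 0.0145), but by 16.0 (adjusted p = 0.0615) without the 6 libraries that carry identity numbers 1 to 3 in the labels and by 19.9 (adjusted p = 0.0808) with all deposited peaks. The third region lies 4331 bp outside Pilra, within the neighbouring gene Zcwpw1 (chr5:137817371-137817871). Its rank percentile was 40.7, 0, 15.7, 39.5 and 10.7 in MIA_LPS, 0 in all MIA_SAL, 14.8 in 1 and 0 in the other CON_LPS libraries, and 0 in all CON_SAL libraries. The difference over both offspring groups was 11.7 ± 3.65 points (limma, adjusted p = 0.0233; exact stratified test of presence, adjusted p = 0.0414).

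Sirpa (chromosome 2, 129591042 to 129632228) had the most regions, 14, of which 2 rose in rank and 1 fell. A region within the gene (chr2:129601024-129601524) had rank percentiles of 27.1, 45.6, 13.5, 41.1 and 40.5 in MIA_LPS, 0 to 2.3 (median 0.227) in MIA_SAL, 1.8 to 48.9 (median 39.5) in CON_LPS and 0 in all CON_SAL libraries. Every LPS library had a peak there, while the 3 MIA_SAL peaks ranked among the weakest of their lists. The difference was 31.9 ± 5.44 points (limma, adjusted p = 1.1e-04). The exact stratified test of presence gave an adjusted p of 0.00225, and 0.0958 among peaks with a −log10 q of at least 5. By fold the mean ranks were 6.10 in MIA_LPS, 0.104 in MIA_SAL, 10.7 in CON_LPS and 0 in CON_SAL, and in lists ranked by fold neither call held (5.6 points, limma, adjusted p = 0.191; exact stratified test, adjusted p = 0.0668). A region further into the gene (chr2:129604023-129604523) had a peak in 4 of 5 MIA_LPS, 0 of 6 MIA_SAL, 2 of 7 CON_LPS and 0 of 5 CON_SAL libraries, and rose by 15.0 ± 4.51 points (limma, adjusted p = 0.0185). The opposite was seen 15691 bp outside the gene (chr2:129575101-129575601). There the rank percentile was 0, 14.6, 0, 0 and 0 in MIA_LPS, 0 to 51.3 (median 22.4) in MIA_SAL, 0 to 6.8 (median 0) in CON_LPS, and 67.3, 30.7, 0, 58.4 and 34 in CON_SAL. Most saline libraries and few LPS libraries had the peak, and the rank fell by 28.4 points (SE 6.70; limma, adjusted p = 0.00318), while presence did not pass (exact stratified test, adjusted p = 0.0572).

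Cd200r1 (chromosome 16, 44765736 to 44794977) had 4 regions. One within the gene (chr16:44778712-44779212) had rank percentiles of 44.3, 33.9, 67.3, 39.5 and 57.8 in MIA_LPS, 0 to 35.8 (median 2.27) in MIA_SAL, 0 to 59.9 (median 36.6) in CON_LPS, and 44.1, 0, 0, 0 and 33.1 in CON_SAL. CON_LPS and CON_SAL libraries overlapped widely, and the difference over both offspring groups was 27.4 ± 7.95 points (limma, adjusted p = 0.0152). Lair1 (chromosome 7, 4007073 to 4073567) had 10 regions, of which 9 were not called. The one that fell lay 141 bp from an end of the gene (chr7:4073176-4073676) and had a peak in all 23 libraries. Its mean rank was 44.4 ± 10.2 in MIA_LPS, 52 ± 10.8 in MIA_SAL, 37.0 ± 19.7 in CON_LPS and 63.1 ± 8.01 in CON_SAL, a difference of −16.8 ± 5.90 points (limma, adjusted p = 0.0439).

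**Figure D3:**
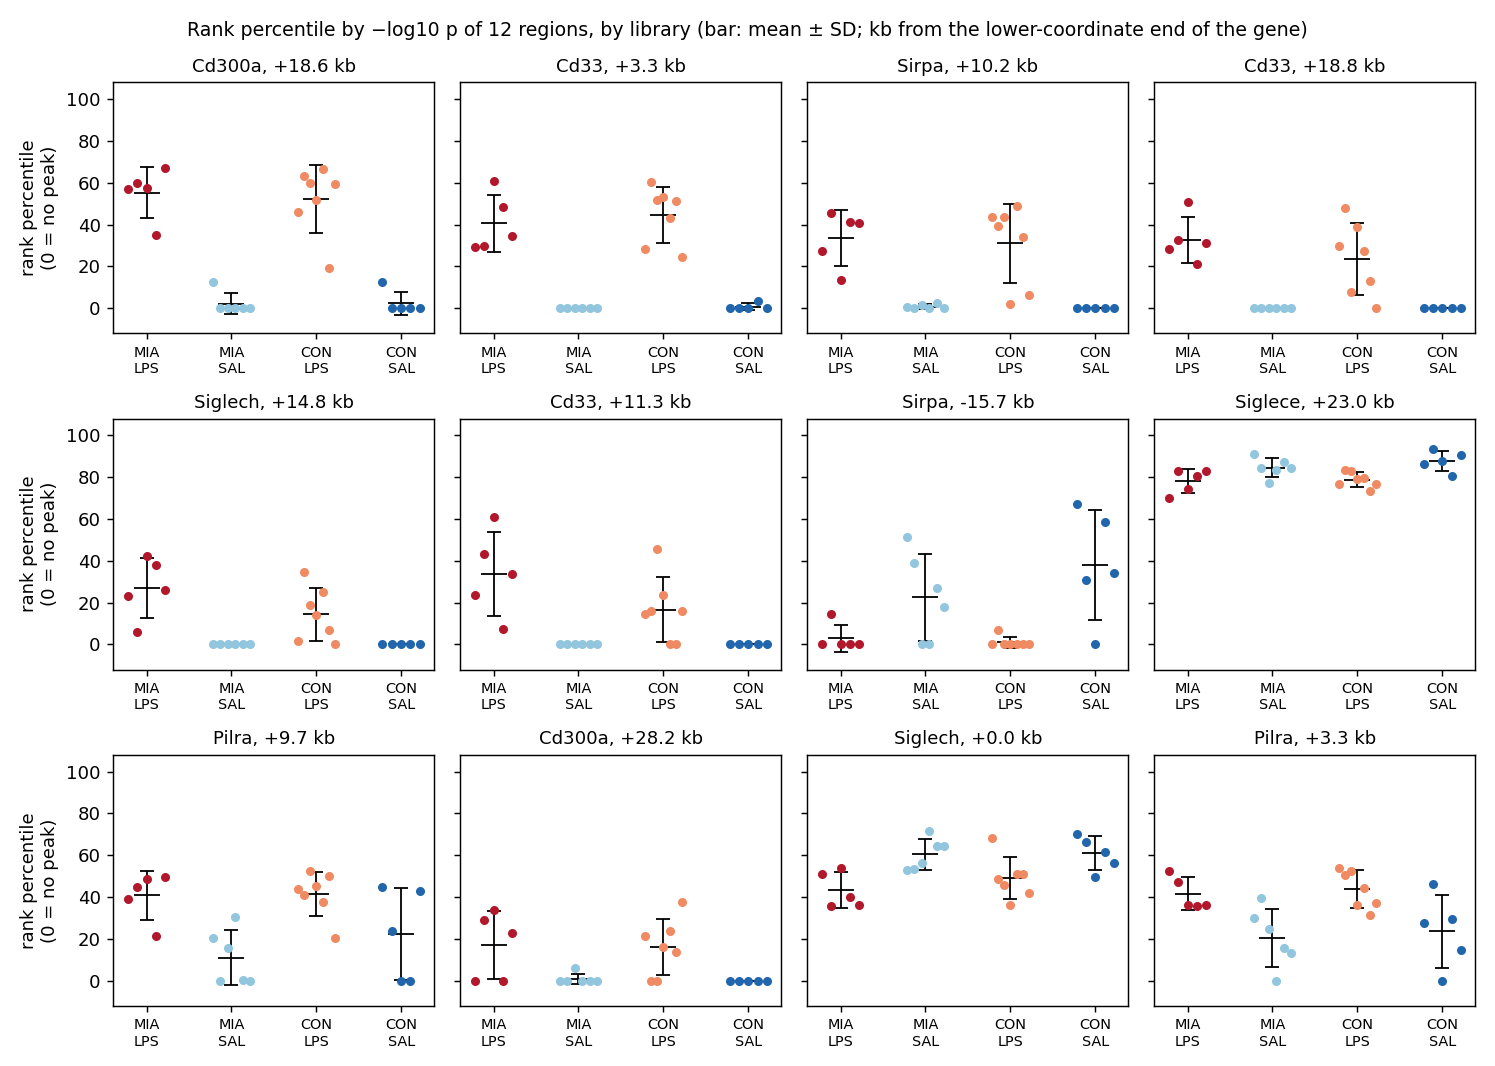
Rank percentile by −log10 p (y axis, 0 is no peak and 100 the strongest peak of the list) of the 12 regions with the smallest p, by group (x axis; 5 MIA_LPS, 6 MIA_SAL, 7 CON_LPS and 5 CON_SAL libraries). Points are libraries, bars the mean ± SD, and each title gives the receptor and the distance in kb from the lower-coordinate end of its gene. At the first Cd300a and the first Cd33 region LPS and saline libraries do not overlap, with the lowest LPS libraries at 19.0 and 24.5.

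RefSeq promoter sequences (GRCm38.p6, 250 bases before to 50 after the listed start) were at hand for 6 of the 8 receptors, and none for Sirpa and Cd200r1. The 4 below show the contrast between the start of a gene and the regions around it: Siglech, whose promoter rank fell, Cd33 and Cd300a, whose gains lay elsewhere, and Pilra, whose listed start had no peak. Capitals mark matches to short motifs of transcription factors.
Siglech, chr7:55767934-55768233, plus strand: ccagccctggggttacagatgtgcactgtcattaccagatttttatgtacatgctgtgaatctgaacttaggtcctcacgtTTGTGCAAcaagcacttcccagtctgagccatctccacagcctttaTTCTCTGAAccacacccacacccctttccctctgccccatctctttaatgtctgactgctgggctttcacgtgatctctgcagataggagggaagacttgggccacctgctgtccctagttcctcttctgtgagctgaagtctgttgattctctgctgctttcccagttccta
Cd33, chr7:43533122-43533421, minus strand: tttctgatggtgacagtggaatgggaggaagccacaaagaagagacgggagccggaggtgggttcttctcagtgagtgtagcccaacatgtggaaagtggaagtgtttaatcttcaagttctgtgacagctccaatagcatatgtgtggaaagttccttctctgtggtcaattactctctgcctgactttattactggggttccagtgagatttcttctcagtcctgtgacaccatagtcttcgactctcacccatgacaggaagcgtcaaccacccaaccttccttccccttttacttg
Cd300a, chr11:114889791-114890090, plus strand: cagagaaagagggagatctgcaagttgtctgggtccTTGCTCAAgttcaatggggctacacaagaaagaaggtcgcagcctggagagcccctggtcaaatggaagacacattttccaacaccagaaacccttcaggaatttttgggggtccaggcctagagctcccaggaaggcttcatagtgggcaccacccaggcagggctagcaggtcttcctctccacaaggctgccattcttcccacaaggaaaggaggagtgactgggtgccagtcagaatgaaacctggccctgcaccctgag
Pilra, chr5:137836229-137836528, minus strand: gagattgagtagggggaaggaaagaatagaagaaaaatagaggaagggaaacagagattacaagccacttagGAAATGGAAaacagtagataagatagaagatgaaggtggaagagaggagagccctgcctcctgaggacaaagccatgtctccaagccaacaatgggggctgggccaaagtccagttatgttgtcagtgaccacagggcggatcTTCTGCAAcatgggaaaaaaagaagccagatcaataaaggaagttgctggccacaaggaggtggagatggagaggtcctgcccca
A peak overlapped the Siglech, Cd33, Cd300a and Lair1 promoters in all 23 libraries, the Siglece promoter in 19 and the Pilra promoter in 0. In Cd300a the summit lay beyond the printed stretch, in a region centred 245 bp after the listed start. That region ranked at 77.3 ± 3.76 in MIA_LPS, 81.3 ± 4.28 in MIA_SAL, 79.0 ± 3.75 in CON_LPS and 81.6 ± 3.16 in CON_SAL (difference −3.3 ± 1.69 points, limma, adjusted p = 0.184). The region at the Cd33 start ranked at 51 ± 6.57 in MIA_LPS, 53 ± 4.49 in MIA_SAL, 54.4 ± 12.2 in CON_LPS and 63.9 ± 4.58 in CON_SAL (difference −5.8 ± 3.86 points, limma, adjusted p = 0.311). The Lair1 and Siglece starts were likewise not called (−2.8 points, adjusted p = 0.546, and −4.6 points, adjusted p = 0.674, limma).

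The motifs were searched on both strands in the 6 promoters. TTNNGCAA, a loose form of the C/EBP site, was found in 4 of the 6 and in 10.8% of all 32851 promoters: in Siglech as TTGTGCAA, in Pilra as TTCTGCAA and, on the other strand, in Cd300a as TTGCTCAA and in Lair1 as TTGCATAA. TTCNNNGAA, the pattern of STAT factors, was found in Siglech as TTCTCTGAA (8.3% of all promoters). GAAANNGAA, the pattern of interferon response elements, was found in Pilra as GAAATGGAA (8.56%). GAGGAAGT for PU.1 (3.2% of all promoters), GGNNTTTCC for NF-kB (5.82%), TGANTCA for AP-1 (7.81%) and TTGCNNCAA, another form of the C/EBP site (2.08%), were in none of the 6. No match overlapped another. These are matches of letters, and binding was not measured.

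Taken one offspring group at a time, the LPS differences ran the same way at most regions. In MIA offspring, limma called 10 of 65 regions higher and 1 lower with LPS (6.23% and 3.78% of all regions), and Fisher's exact test called 4 of 10 tested regions more often present (13% of all tested regions, and 2.48% less often). Those 4 were the region beyond Siglech and the 3 Cd33 regions, each in 5 of 5 MIA_LPS and 0 of 6 MIA_SAL libraries (Fisher's exact test, adjusted p = 0.014). In CON offspring, limma called 4 higher and 3 lower (5.59% and 4.44% of all regions), and Fisher's exact test called 1 of 11, in Sirpa (9.92% of all tested regions, and 2.52% less often). The region beyond Siglech was not among the 11, since its number of peaks there could not give a p of 0.01. Only complete separation could pass in these tests, with a smallest p of 0.00216 for 5 against 6 MIA libraries and 0.00126 for 7 against 5 CON libraries. At the Cd300a region beyond the gene the difference was 53.2 ± 8.09 points in MIA and 49.9 ± 7.82 in CON offspring. At the Cd33 region within the gene it was 40.6 ± 7.27 in MIA and 44.0 ± 7.03 in CON offspring, and at the first Sirpa region 32.8 ± 7.82 in MIA and 31.0 ± 7.56 in CON offspring. The 2 offspring groups share no library, and 50 of the 65 regions had the same sign in both. The share among all regions was not counted, so this cannot be read as particular to the receptors. The difference of the LPS effects, MIA minus CON, was called at no region by limma (0% of all regions; 4 of 65 at an unadjusted p under 0.05, smallest adjusted p = 0.971). It ranged from −22.8 points at a Sirpa region to 24.0 at the Cd200r1 region. The interval of 2 SE to either side had a median half-width of 18.6 points, so differences within that width could not be told from 0.

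**Figure D4:**
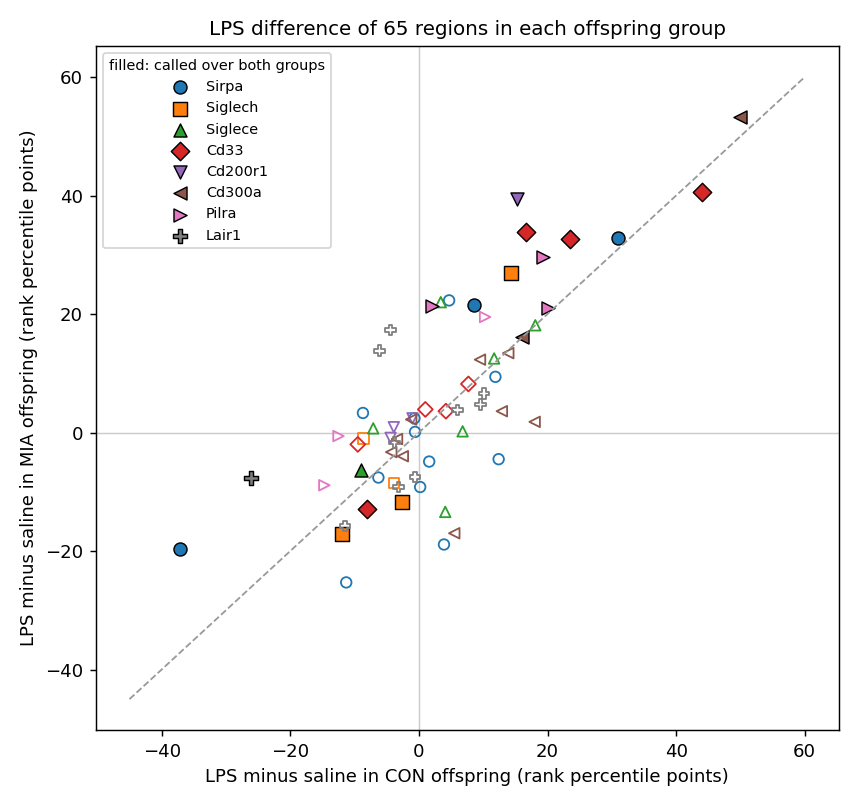
Rank difference between LPS and saline libraries, in percentile points, of the 65 regions in MIA offspring (y axis, 5 against 6 libraries) and CON offspring (x axis, 7 against 5 libraries). Each point is a region, symbols give the receptor, filled points are the 18 regions called over both offspring groups, and the dashed line marks equal differences. The Cd300a, Cd33 and Sirpa regions with the widest differences lie close to the line, and 50 of the 65 points have the same sign on both axes. The share of the same sign over all regions was not counted.

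Between MIA and CON offspring no receptor region was called. The exact tests of presence called 0 of 20 regions over both treatments, 0 of 8 after saline and 0 of 4 after LPS (0% of all tested regions in each), and 0, 0 and 0 had an unadjusted p under 0.05. limma called 0 of 65 in each of the 3 contrasts, with 2, 1 and 7 at an unadjusted p under 0.05. Among all regions it called 0% over both treatments, 0% after saline and 0.0244% after LPS. After saline the differences, MIA minus CON, ran from −15.6 to 28.7 points, and after LPS from −16.9 to 19.2. The interval of 2 SE to either side had a median half-width of 13.4 points after saline and 12.9 points after LPS. The peak number of the 8 loci was not called for MIA against CON either (0% of all loci; 0 of 8 at an unadjusted p under 0.05). The 7 regions after LPS, 10.8% of 65 against 5.63% of all regions at that unadjusted p, were higher in MIA_LPS in 6 cases. The widest was the region near Pilra within Zcwpw1, with a peak in 4 of 5 MIA_LPS and 1 of 7 CON_LPS libraries. It ranked 19.2 ± 5.08 points higher in MIA_LPS (interval of 2 SE to either side, 9.1 to 29.4; limma, adjusted p = 0.33). It passed with all deposited peaks (38.7 points, limma, adjusted p = 0.0306), in lists ranked by fold (33.9 points, adjusted p = 0.0434) and without MIA_LPS replicate 2 (24.5 points, adjusted p = 0.0313). That replicate was the only MIA_LPS library without a peak there, so leaving it out had to widen the difference. The deposited lists were longer in MIA_LPS (median 55011 peaks) than in CON_LPS (median 43348 peaks).

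Among the other genes of the pathway, 37 with 243 regions, limma called 39 regions (16.0%) higher and 18 (7.41%) lower with LPS, against 10.8% and 9.77% of all regions. By number of peaks, 7 of 32 loci tested (21.9%) rose and 0 fell, against 6.32% and 4.59% of all loci. Among these were the CD47 gene Cd47, the kinase gene Syk, and the receptor genes Cd300lb, Fcgr2b, Vsir and Havcr2. This list was drawn up with earlier results of these data known, and 5 of its regions are shared with the receptor loci, since Cd300lb lies beside Cd300a. Of the ligands, Cd47, the partner of SIRP-alpha, held 4.4 ± 1.14 peaks in MIA_LPS, 2.5 ± 0.837 in MIA_SAL, 3.29 ± 0.951 in CON_LPS and 2 ± 0 in CON_SAL (log2 0.56 ± 0.114, limma, adjusted p = 0.00259), and 3 of its 7 regions rose in rank. The region with the widest gain, within the gene (chr16:49854712-49855212), had a peak in 4 of 5 MIA_LPS, 0 of 6 MIA_SAL, 6 of 7 CON_LPS and 0 of 5 CON_SAL libraries (60.2 ± 10.7 points, limma, adjusted p = 1.9e-04). The next region (chr16:49855307-49855807), with a peak in all 23 libraries, had the same highest ranks, 87.58 in MIA_LPS and 86.79 in CON_LPS. A peak can count for both regions, and the next region was not called (−3.1 ± 1.48 points, limma, adjusted p = 0.15). Whether the gain is a new peak or a wider one was not tested. Cd200, the ligand of CD200R1, had no region. Of the phosphatases, Ptpn6 gained a region 4 bp outside the gene (chr6:124738463-124738963), present in 5 of 5 MIA_LPS, 0 of 6 MIA_SAL, 6 of 7 CON_LPS and 0 of 5 CON_SAL libraries (20.7 ± 4.65 points, limma, adjusted p = 0.00204), 1 call among its 13 regions. Ptpn11 rose at 1 of 5 regions (13.5 ± 4.77 points, limma, adjusted p = 0.0461). Inpp5d, the lipid phosphatase, fell at 3 of 13 regions, each with a peak in all 23 libraries. The widest fell by 22.9 points (SE 4.72; limma, adjusted p = 8.9e-04). Tyrobp, the adaptor of Siglec-H, fell at 1 of 3 regions (−4.9 ± 1.71 points, limma, adjusted p = 0.0432). The inhibitory receptors Pirb, with 9 regions, and Lilrb4a, with 1, had no call.

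The region beyond Cd300a was compared with all others for its pattern over the libraries. The 3 regions on other chromosomes whose ranks over the 23 libraries were most like its own lay 6140 bp from Rnf34, which encodes a ubiquitin ligase (Pearson r = 0.970), within Trem1, an activating receptor of myeloid cells (r = 0.968), and 19477 bp from Lpl, the lipoprotein lipase (r = 0.968). Each had a peak in 5 of 5 MIA_LPS, 0 of 6 MIA_SAL, 7 of 7 CON_LPS and 0 of 5 CON_SAL libraries. The correlation describes libraries that share a treatment and is given without a test.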

How the data were processed

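ATAC-seq peak lists of 23 libraries of sorted striatal microglia were used, 1 list per library. The submitters' processing notes name the tools MACS2, Bowtie2, cutadapt, SAMtools, Picard and DiffBind and the builds GRCm38 and mm10, without versions or settings. The deposited columns were read as the authors' fold enrichment at the summit (a ratio), their −log10 p and −log10 q, and the summit offset. The lowest deposited −log10 q was 1.301. No read counts were used, so the depth per library is unknown; a library with more reads can list more peaks.

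Lists were shortened to the best 33949 peaks by −log10 p. Of 74289 windows (250 bp to either side of a summit), the 49126 found in 3 or more libraries were kept. Presence required a peak that covered 50% of the region or lay inside it with 50% of its length. Absent peaks had rank 0. Presence was tested two-sided with Fisher's exact test, or an exact conditional test stratified by the other factor, where a p of 0.01 was attainable. Ranks, and log2 peak numbers per locus with 1 added (loci with a mean of at least 1), were fitted over the 4 groups with limma 3.58.1 (R 4.3.3; moderated, with trend). P-values were adjusted by Benjamini-Hochberg over all features. Contrasts over both offspring groups weight them equally. Gene positions and promoters came from RefSeq (GRCm38.p6); the gene table has no strand. The scripts were tested on simulated data. The Fisher test within 1 offspring group can call regions only where many of them separate completely.

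Some genes counted in the lists are not reported here by name. The members, lists and tests were chosen with earlier results of these data known. All 8 genes are named; of their called regions the 12 with the smallest p are given in full, the other 6 called more briefly, and for the first the 3 most correlated regions elsewhere. Deviations from the group mean were compared between libraries of different groups. Those that share a replicate number had an r of −0.18 to 0.185 over 31 pairs, median 0.021. Those with unlike numbers had an r of −0.229 to 0.234 over 166 pairs, median −0.005. Alternatives covered list length, a −log10 q of at least 5, ranking by fold, the overlap rule, filters, 0 and 50 kb around the gene, sorted cell number (under 20000 in 13 libraries) and identity number as factors, the replicate number as a block, and each library left out.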

Additional observations from a re-analysis of the deposited data

Results flagged for a closer look

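Values that stood apart from the rest of their group were looked for in the lists shortened to 33949 peaks, to which all values here belong. The search covered 70 sets, each a group's values at a locus or at a named region, and 10 such values were found. Chance alone gives about 1 in 20. At the region beyond Cd300a, the lowest CON_LPS library, replicate 6, had a rank percentile of 19.0, with the next at 46.1. The only saline libraries with a peak there were MIA_SAL replicate 1 and CON_SAL replicate 1, each at 12.3. At the other Cd300a region MIA_SAL replicate 3 alone of its group had a peak, at 5.9. At the Cd33 region within the gene CON_SAL replicate 4 alone of the saline libraries had a peak, at 3.6. At the Sirpa region that fell with LPS the only LPS libraries with a peak were MIA_LPS replicate 2, at 14.6, and CON_LPS replicate 2, at 6.8. In peak number, Siglech had 6 in CON_LPS replicate 1, where the next highest had 4. Siglece had 2 in MIA_SAL replicate 3, where the next lowest had 4, and Cd200r1 had 2 in MIA_LPS replicate 3, where the others had 3. In a set where all other values are equal, any departure stands apart. The causes were not tested.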

How the results depend on the processing

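Of the alternatives tried on named regions and loci, other than leaving out libraries, 165 kept direction and call, 31 lost the call, 1 gained it and 0 reversed. Of the 31, 28 kept their direction and 3, in lists of 16974 peaks, had a difference of 0. Counts below are receptor calls of LPS against saline over both offspring groups, in MIA and in CON offspring. With lists of 16974 peaks, which drop every peak under a rank percentile of 50, presence gave 1, 0 and 0 (9, 4 and 1 in the report), rank 3, 0 and 0 (18, 11 and 7 in the report) and loci 0 (2 in the report). With all deposited peaks presence in CON gave 0, loci 1, and rank in MIA against CON after LPS 1 (0 in the report). Ranked by fold, presence in CON gave 0, rank 10, 3 and 4, and MIA against CON after LPS 1. Without a filter presence gave 0 in MIA and 0 in CON. Without the 6 libraries of identity numbers 1 to 3 it gave 0 in MIA, where no region can then pass, and 3 in CON. Regions with a peak in all 23 libraries alone gave 5, 1 and 1 by rank. Within gene bodies alone (0 kb), where fewer regions are counted, presence gave 3 over both and 1 in MIA, rank 8, 5 and 4, and loci 1. With identity number (1 to 3 against higher) or sorted cell number (under 20000 against more) as a factor, rank over both groups gave 19 and 20. The shared identity numbers themselves were not fitted.

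Leaving out each library gave 6 to 10, 4 to 5 and 1 to 3 calls by presence, 16 to 20, 7 to 15 and 4 to 8 by rank, 0 to 1 for MIA against CON after LPS, 2 to 2 loci, and 0 to 0 for the other contrasts of MIA. Rank in MIA was 7 without MIA_LPS replicate 5 and in CON 4 without CON_SAL replicate 5. Presence in CON was 3 without CON_LPS replicate 7 and 2 without CON_SAL replicate 1 or 4. The call after LPS was the region near Pilra without MIA_LPS replicate 2, and a Sirpa region (−8.5 points, limma, adjusted p = 0.0459) without MIA_LPS replicate 3. With the replicate number as a block, rank gave 18, 10 and 6, loci 2, and MIA against CON 0. The samples share only a number, and 7 of 23 libraries correlated best with their own number. The causes were not tested.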
